A study of Mus musculus with 8 samples.

Results

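The citric acid cycle enzymes described here are the products of 9 nuclear genes, Cs, Idh3a, Idh3b, Idh2, Ogdh, Sucla2, Suclg1, Fh1 and Mdh2. They were taken as a list by symbol, and each is 1 of the 23282 rows of every deposited table. All 9 were among the 13174 rows that passed the filter on low counts. Messenger RNA of the gastrocnemius, a calf muscle, was read at the 3' ends of transcripts in C57BL/6 mice, in 8 libraries of 9528011 to 12333767 counts each. The series asked how an extract of Paeonia lactiflora, the peony, acts on muscle wasting in mice that carry a tumour.

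By their titles, 2 libraries named RP came from mice in which Lewis lung carcinoma cells, a mouse tumour line, had been injected under the skin. These mice took the plant's 30% ethanol extract by mouth at 100 mg/kg each day for 2 weeks. The 3 libraries titled Control came from mice with the same tumour that received 200 µl of distilled water. The 3 libraries titled Normal came from mice injected with 100 µl of saline in place of tumour cells and also given water. Dosing began 2 weeks after injection, when the tumours had grown, and the tumour-bearing mice were grouped anew so that tumour sizes matched. The labels give an age of 4 weeks without saying at which step, and they do not say whether a library is 1 animal, so p-values measure the spread between these libraries. The tables of all 6 Normal-titled and Control-titled libraries carry the other group's name in their file name and column header. Groups below follow the titles. If the table names are right instead, the Control over Normal comparison changes sign and the RP comparisons with these groups change places.

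The citric acid cycle runs in the mitochondrial matrix. It burns the acetyl group of acetyl-CoA, made from sugars, fats and amino acids, to carbon dioxide and passes the electrons to NAD and FAD for the respiratory chain. In skeletal muscle its capacity is greater in oxidative than in glycolytic fibres, and citrate synthase activity is a common measure of mitochondrial content. Several steps have partner or alternative enzymes. Isocitrate is oxidised by the NAD-dependent enzyme, built from alpha, beta and gamma subunits (Idh3a, Idh3b and Idh3g), and by the NADP-dependent Idh2, which yields NADPH. Succinyl-CoA ligase pairs the alpha subunit Suclg1 with 1 of 2 beta subunits, Sucla2 in the ATP-forming enzyme and Suclg2 in the GTP-forming one.

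The 250 bases before the transcription start given by RefSeq were read for 3 of the 9 genes. They were Idh2, the only 1 of the 9 called lower in a comparison below, and the partner subunits Sucla2 and Suclg1. The sequences are from RefSeq, build GRCm38.p6, written 5' to 3' along the gene's strand. The windows are chr7:80115351-80115600 on the minus strand for Idh2, chr14:73552536-73552785 on the plus strand for Sucla2 and chr6:73248255-73248504 on the plus strand for Suclg1. Capitals mark the match to the NRF1 motif.
Idh2: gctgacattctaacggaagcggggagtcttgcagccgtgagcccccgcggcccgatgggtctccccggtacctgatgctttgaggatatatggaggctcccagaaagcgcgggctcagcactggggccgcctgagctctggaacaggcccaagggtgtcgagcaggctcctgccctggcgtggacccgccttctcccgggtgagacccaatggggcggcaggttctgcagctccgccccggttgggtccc
Sucla2: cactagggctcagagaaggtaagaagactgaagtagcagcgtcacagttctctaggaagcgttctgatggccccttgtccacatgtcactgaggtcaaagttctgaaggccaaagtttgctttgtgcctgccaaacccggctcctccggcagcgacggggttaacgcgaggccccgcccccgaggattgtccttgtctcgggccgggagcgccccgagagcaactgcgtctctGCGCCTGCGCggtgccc
Suclg1: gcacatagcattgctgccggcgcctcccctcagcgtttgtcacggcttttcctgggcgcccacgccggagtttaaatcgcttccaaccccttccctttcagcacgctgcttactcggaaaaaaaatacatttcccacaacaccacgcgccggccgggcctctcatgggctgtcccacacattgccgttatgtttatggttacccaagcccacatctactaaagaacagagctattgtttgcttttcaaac
Of the 9 genes, 8 had an entry in the RefSeq promoter table, and Idh3a had none. The motifs of 3 kinds of factor linked to mitochondrial genes were searched on both strands, TCAAGGTCA for the ERR receptors, CCGGAAG for ETS factors such as GABP and GCGCA, any base and GCGC in a row for NRF1. Among all RefSeq starts of the 8 genes, only that of Sucla2 held a match, to the NRF1 motif at 17 bases before it. Over all 32851 promoters of the same length, 0.387% held the ERR motif, 6.91% the ETS motif and 3.74% the NRF1 motif. A match is a match of letters and not a shown binding site. Of the 250 bases, 67.2% were G or C in Idh2, 61.2% in Sucla2 and 53.2% in Suclg1, with 17, 18 and 15 CG pairs.

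In GENCODE M21 on build GRCm38 (mm10), the genes lie at chr10:128337734-128362479 (Cs), chr9:54586334-54604661 (Idh3a), chr2:130279309-130284547 (Idh3b), chr7:80094846-80115392 (Idh2), chr11:6291633-6356642 (Ogdh), chr14:73525319-73596142 (Sucla2), chr6:73248382-73276911 (Suclg1), chr1:175600374-175625635 (Fh1) and chr5:135778480-135790398 (Mdh2). Idh3b, Idh2 and Fh1 are on the minus strand and the other 6 on the plus strand. The Sucla2 promoter window above lies inside this GENCODE span, well past its 5' end. Those of Idh2 and Suclg1 cross the 5' ends of their spans. The bases before the GENCODE 5' end of Sucla2 were not searched for motifs.

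Across the 8 libraries the counts of the 9 genes lay between 1785 and 9576. The 95% Poisson interval of the lowest count reached 4.67% to either side, and that of the highest 2.01%, counting error alone. Levels are given as CPM, counts scaled to a common library size with TMM factors. They are compared between groups for 1 gene and not between genes, since 3' counts are not corrected for how well each end is captured. In bulk muscle, fewer fibres and less RNA per fibre cannot be told apart. The summed level of the 9 genes was 3881 and 3724 CPM in RP libraries, 3310 to 3632 CPM in Control-titled libraries and 2962 to 3008 CPM in Normal-titled libraries. The groups stood in the order RP, Control, Normal without overlap on this scale. As a share of all counts the sum was 0.378 and 0.359% in RP, 0.355 to 0.379% in Control-titled and 0.251 to 0.313% in Normal-titled libraries. By this share RP and Control overlapped, and both lay above Normal.

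**Figure D1:**
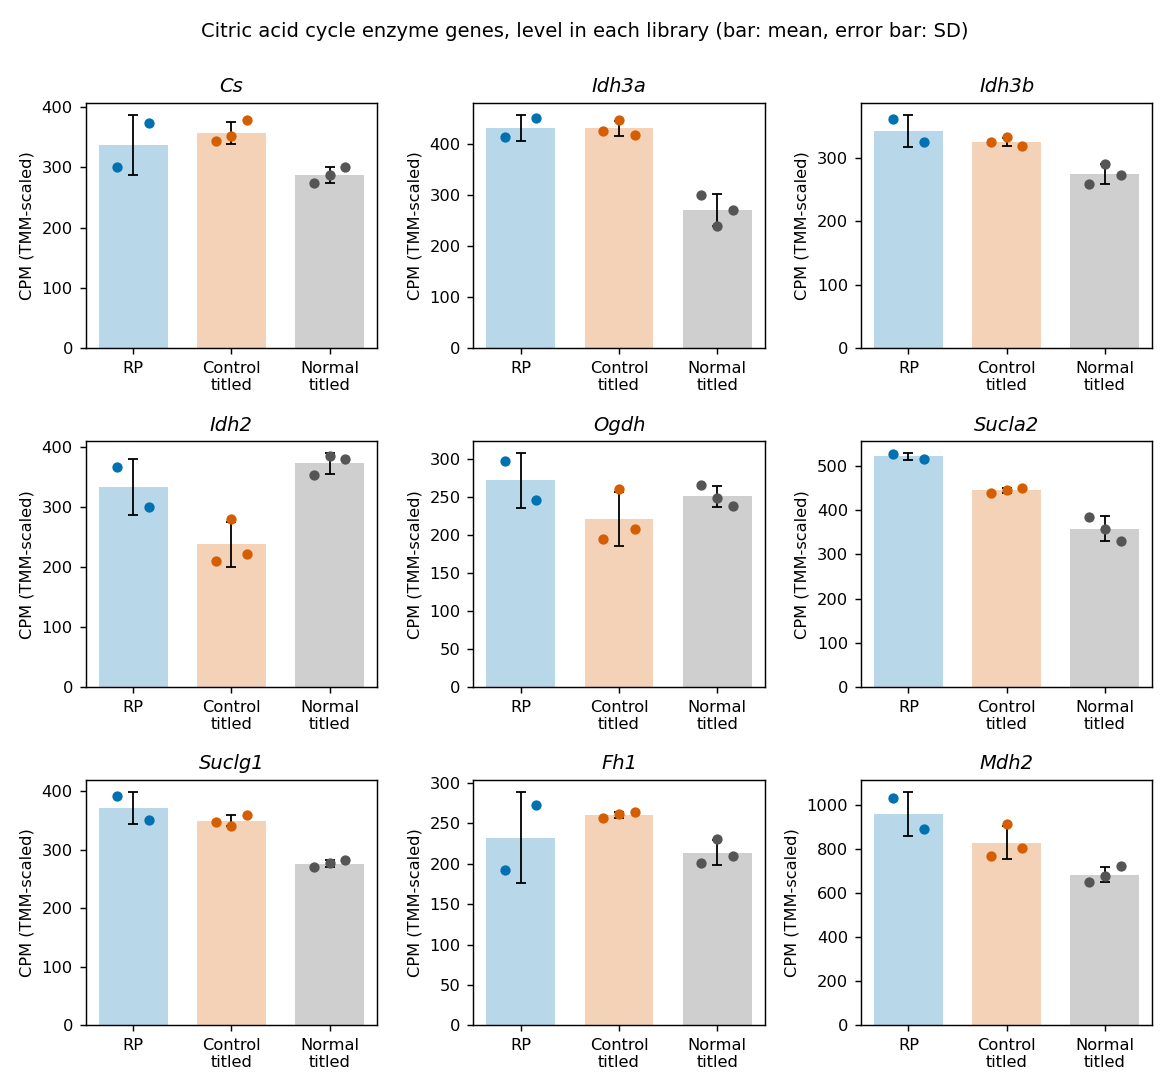
Level of each of the 9 genes in TMM-scaled CPM (y axis from 0) for the 2 RP, 3 Control-titled and 3 Normal-titled libraries. Points are libraries, bars are means and error bars are SD. Idh2 is the gene with its lowest levels in all 3 Control-titled libraries, 211 to 281 CPM against 354 to 386 CPM in Normal-titled libraries.

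Cs, citrate synthase, joins acetyl-CoA to oxaloacetate and so opens the cycle. It was at 301 and 372 CPM in RP 1 and 2, at 343, 351 and 378 CPM in the Control-titled libraries, and at 275, 288 and 300.1 CPM in the Normal-titled ones, each in the order of replicates 1 to 3 as for the genes below. RP spanned the gap between the other groups, with RP 1 next to the highest Normal-titled library and RP 2 within the Control-titled range.

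Idh3a and Idh3b of the NAD-dependent isocitrate dehydrogenase were lowest in Normal-titled libraries. Idh3a, the catalytic alpha subunit, was at 412 and 449 CPM in RP 1 and 2, at 424, 447 and 418 CPM in Control-titled libraries, and at 300.0, 238 and 271 CPM in Normal-titled libraries. All 5 RP and Control-titled libraries lay above all 3 Normal-titled ones. Idh3b, the beta subunit, was at 361 and 325 CPM in RP, 325, 332 and 319 CPM in Control-titled and 258, 289.9 and 274 CPM in Normal-titled libraries. Its order was the same as that of Idh3a with a narrower gap. The last 5 exonic bases of Idh3b overlap the end of Nop56 on the other strand, and the strand counted is not given in the sources used here. Nop56, a nucleolar protein gene, was at 66.5 and 65.7 CPM in RP, 61.9 to 72.1 CPM in Control-titled and 64.9 to 77.7 CPM in Normal-titled libraries, where all 3 groups overlapped. Idh3g, the gamma subunit gene and not 1 of the 9, was at 226 and 193 CPM in RP, 179 to 192 CPM in Control-titled and 156 to 193 CPM in Normal-titled libraries, so that Control and Normal overlapped.

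Idh2, the NADP-dependent mitochondrial isocitrate dehydrogenase, had another order of groups. Its level was 367 and 301 CPM in RP 1 and 2, 211, 281 and 223 CPM in Control-titled libraries, and 354, 386 and 380.4 CPM in Normal-titled libraries. The Control-titled libraries lay below all others. RP 1 lay within the Normal-titled range and RP 2 between the groups.

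Ogdh, the substrate-binding E1 subunit of the 2-oxoglutarate dehydrogenase complex, was at 297 and 246 CPM in RP, 195, 261 and 208 CPM in Control-titled and 266, 249 and 238 CPM in Normal-titled libraries. All 3 groups overlapped, and Control 2 stood above Control 1 and 3 for Ogdh as it did for Idh2.

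Sucla2 and Suclg1 of the succinyl-CoA ligases were highest in RP by mean. Sucla2 was at 528 and 517 CPM in RP 1 and 2, 439.7, 446 and 451 CPM in Control-titled libraries, and 386, 358 and 329 CPM in Normal-titled libraries. Its 3 groups were all apart, which held for 1 of the 9 genes and for 6.13% of all genes tested. Suclg1 was at 391 and 351 CPM in RP, 347, 341 and 359 CPM in Control-titled and 270.1, 277 and 282 CPM in Normal-titled libraries. RP 2 lay within the Control-titled range for Suclg1, and both groups were above Normal.

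Fh1, fumarase, which adds water to fumarate, was at 192 and 273 CPM in RP 1 and 2, 256, 261 and 264 CPM in Control-titled and 201, 231 and 210.0 CPM in Normal-titled libraries. The 2 RP libraries stood at the extremes of all 8. Mdh2, mitochondrial malate dehydrogenase, which regenerates oxaloacetate, was at 1032 and 889.6 CPM in RP, 769, 912 and 804 CPM in Control-titled and 653, 678 and 723 CPM in Normal-titled libraries. RP and Control overlapped for Mdh2, and both stood above Normal. The difference between the 2 RP libraries, as a share of their mean, was smallest for Sucla2 (1.98%) and largest for Fh1 (34.5%). It was 21.2% for Cs, 19.8% for Idh2, 18.7% for Ogdh and 8.58 to 14.8% for the other 4, so the RP means of Fh1, Cs, Idh2 and Ogdh rest on libraries well apart.

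RP against Control addressed the effect of the extract in tumour-bearing mice. The call rule throughout was an adjusted p under 0.05 from the quasi-likelihood test of edgeR, adjusted by Benjamini-Hochberg over all 13174 genes. By it 0 of 9 genes were called, against 23 of all genes (0.175%, or 0.144% higher and 0.0304% lower). At an unadjusted p under 0.05 there was 1 of 9, Idh2, against 8.98% of all genes, and DESeq2 and limma-voom each called 0 of 9. Idh2 averaged 334 ± 46.7 CPM in RP (SD, n = 2) and 238 ± 37.4 CPM in Control-titled libraries (SD, n = 3). Its log2 change was 0.49 ± 0.170 (SE), a fold of 1.40, with a 95% interval of 0.12 to 0.85 and adjusted p = 0.392 in edgeR. Both RP libraries were above all Control-titled ones for Idh2 and Sucla2, 2 of 9 genes, and 0 lay wholly below. Of all genes 31.7% did not overlap, 15.3% higher and 16.4% lower.

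The other 8 log2 changes of RP over Control ran from -0.16 for Fh1 to 0.30 for Ogdh. Sucla2 averaged 522 ± 7.30 CPM in RP and 445 ± 5.44 CPM in Control-titled libraries, a log2 change of 0.23 with a 95% interval of -0.086 to 0.55. Idh3a averaged 431 ± 26.1 CPM in RP and 429.6 ± 15.3 CPM in Control-titled libraries, a log2 change of 0.0033 with an interval of -0.33 to 0.34. Intervals of this width do not show equal levels. The median log2 change of the 9 genes was 0.088, beside -0.0038 over all genes tested. It was -0.043, with 4 of 9 genes positive in place of 7, when libraries were scaled to their totals alone, and 0.16 without RP 2.

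RP against Normal compared the 2 states that differ in both tumour and extract. Idh3a was higher in RP, 1 of 9 genes called, against 330 of all genes (2.50%, or 1.67% higher and 0.835% lower). It averaged 431 ± 26.1 CPM in RP (SD, n = 2) and 269.7 ± 30.9 CPM in Normal-titled libraries (SD, n = 3). The log2 change was 0.67 ± 0.154 (SE), a fold of 1.60, adjusted p = 0.0373 in edgeR. This call was held with Normal 1 or Normal 3 left out and lost without any other library, while the log2 change stayed between 0.59 and 0.76. The adjusted p was 0.140 without Normal 2, 0.0884, 0.0658 and 0.0786 without Control 1, 2 and 3, and 0.194 and 0.171 without RP 1 and 2, with a range of 0.00112 to 0.194 over 20 alternatives. The call was also lost with log2 Hba-a1, a haemoglobin gene, as a covariate (log2 change 0.66, adjusted p = 0.132 in edgeR). Hba-a1 was at 3741 and 14680 CPM in RP and 14880 to 81500 CPM in Normal-titled libraries, so this fit cannot fully separate it from group. Other fits that lost the call were the replicate number as a block (0.67, adjusted p = 0.105), library totals alone (0.68, adjusted p = 0.0593) and only the 2 groups (0.69, adjusted p = 0.166, edgeR).

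An unadjusted p under 0.05 in RP against Normal was found for 5 of 9 genes, against 17.1% of all genes. Sucla2 averaged 522 ± 7.30 CPM in RP and 358 ± 28.3 CPM in Normal-titled libraries, which is 0.55 ± 0.146 (SE) on the log2 scale, adjusted p = 0.0716 in edgeR. It was called with DESeq2 (adjusted p = 0.00629) and without Normal 1 (adjusted p = 0.0188). Mdh2 averaged 961 ± 101 CPM in RP and 685 ± 35.6 CPM in Normal-titled libraries, a log2 change of 0.49 with adjusted p = 0.122 in edgeR and 0.0402 in DESeq2. Suclg1 and Idh3b had log2 changes of 0.43 and 0.32 with adjusted p of 0.144 and 0.281. Both RP libraries stood above all Normal-titled ones for 6 of 9 genes and below for 0. Of all genes 30.8% did not overlap, 15.4% in each direction. Idh2, at -0.16, was the only gene of the 9 with a negative log2 change, and it was at -0.31 without RP 1 and -0.024 without RP 2. The median of the 9 was 0.32, beside -0.037 over all genes tested.

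Control against Normal addressed the effect of the tumour in mice without the extract. Idh3a was higher and Idh2 lower in Control-titled libraries, 2 of 9 genes called, against 1376 of all genes (10.4%, or 4.99% higher and 5.45% lower). Over all genes 658 were higher and 718 lower, and scaling to library totals alone gave 819 and 373. Idh3a averaged 429.6 ± 15.3 CPM in Control-titled and 269.7 ± 30.9 CPM in Normal-titled libraries (SD, n = 3 each). Its log2 change was 0.67 ± 0.140 (SE), a fold of 1.59, adjusted p = 0.00867 in edgeR. Idh2 averaged 238 ± 37.4 CPM in Control-titled and 373 ± 17.2 CPM in Normal-titled libraries (SD, n = 3 each). Its log2 change was -0.65 ± 0.154 (SE), a fold of 0.637, adjusted p = 0.0169 in edgeR.

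The call of Idh3a held without each library in turn, while that of Idh2 needed 3 of the libraries: leaving out Normal 2 gave adjusted p = 0.0612, Control 1 0.113 and Control 3 0.0943 in edgeR. Haemoglobin genes held 1.41 to 1.61% of counts in Control-titled and 4.57 to 19.7% in Normal-titled libraries. With log2 Hba-a1 as a covariate, the log2 changes were 0.66 for Idh3a and -0.69 for Idh2. Neither was then called (adjusted p = 0.118 and 0.142 in edgeR). Hba-a1 itself was at 5229 to 6716 CPM in Control-titled and 14880 to 81500 CPM in Normal-titled libraries. These groups did not overlap, so this fit cannot fully separate Hba-a1 from group. Over 20 alternatives the adjusted p ran from 1e-04 to 0.118 for Idh3a and from 0.00105 to 0.142 for Idh2.

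The remaining 7 genes were not called. Suclg1, Sucla2 and Cs had log2 changes of 0.34, 0.32 and 0.31 and adjusted p of 0.118, 0.150 and 0.172 in edgeR, each with an unadjusted p under 0.05. Suclg1 was called when libraries were scaled to their totals alone (log2 change 0.47, adjusted p = 0.0479 in edgeR). Counting Idh3a and Idh2, 5 of 9 genes had an unadjusted p under 0.05 in edgeR with TMM factors, against 26.3% of all genes. Fh1, Mdh2 and Idh3b were at 0.28, 0.28 and 0.25, and Ogdh at -0.18 with adjusted p = 0.494. The Control-titled libraries lay wholly above the Normal-titled ones for 7 of 9 genes and wholly below for Idh2, where 31.3% of all genes did not overlap, 16.6% higher and 14.7% lower. The median log2 change of the 9 genes was 0.28, beside 0.00043 over all genes tested. The 3 comparisons share libraries in pairs, so their values are not independent of each other.

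**Figure D2:**
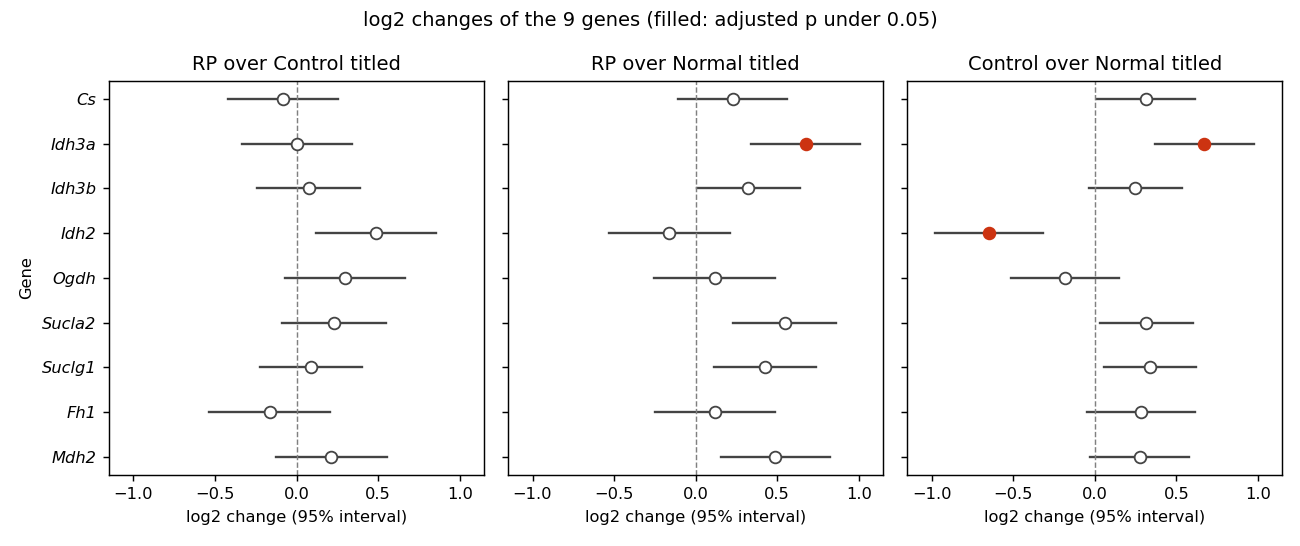
Log2 change (x axis) of each of the 9 genes in the 3 comparisons, with the 95% interval of edgeR's quasi-likelihood fit. Filled points have an adjusted p under 0.05. They are Idh3a in both comparisons with Normal (0.67 in each) and Idh2 in Control over Normal (-0.65).

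Ratios within a library do not depend on the scaling between libraries. They set 1 gene against another, and the size of a ratio has no meaning of its own because capture differs between genes. The log2 ratio of Idh2 to Idh3a was -0.17 and -0.58 in RP 1 and 2, -1.01, -0.67 and -0.91 in Control-titled libraries, and 0.24, 0.70 and 0.49 in Normal-titled libraries. The 3 groups did not overlap, with RP between Control and Normal. The means differed by 0.49 in RP over Control, by -0.85 in RP over Normal and by -1.34 in Control over Normal. Each difference had p = 0.10 in a 2-sided exact permutation test, the smallest p that 2 against 3 or 3 against 3 libraries allow. Such tests numbered 9, and the adjusted p of these 3 was 0.15.

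The ratio of Sucla2 to Suclg2 compared the beta subunits of the ATP-forming and GTP-forming ligases. It was 4.05 and 3.64 in RP, 3.84, 3.66 and 3.53 in Control-titled and 3.43, 3.20 and 3.21 in Normal-titled libraries. The difference was 0.56 in RP over Normal and 0.39 in Control over Normal (exact permutation p = 0.10 each, adjusted p = 0.15), without overlap. In RP over Control it was 0.17 (exact permutation p = 0.50), with overlap. Suclg2 itself was at 31.6 and 41.4 CPM in RP, 30.5 to 39.0 CPM in Control-titled and 35.3 to 38.8 CPM in Normal-titled libraries, where all groups overlapped.

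The alpha and beta subunit genes of NAD-dependent isocitrate dehydrogenase were compared in the same way. The log2 ratio of Idh3a to Idh3b was 0.19 and 0.47 in RP, 0.38, 0.43 and 0.39 in Control-titled and 0.22, -0.28 and -0.015 in Normal-titled libraries. It differed by -0.070 in RP over Control (exact permutation p = 0.70), by 0.36 in RP over Normal (exact permutation p = 0.30) and by 0.43 in Control over Normal (exact permutation p = 0.10, adjusted p = 0.15). The Normal-titled libraries were lower than all Control-titled ones, and their spread of 0.249 (SD) was the widest of the 3 groups.

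**Figure D3:**
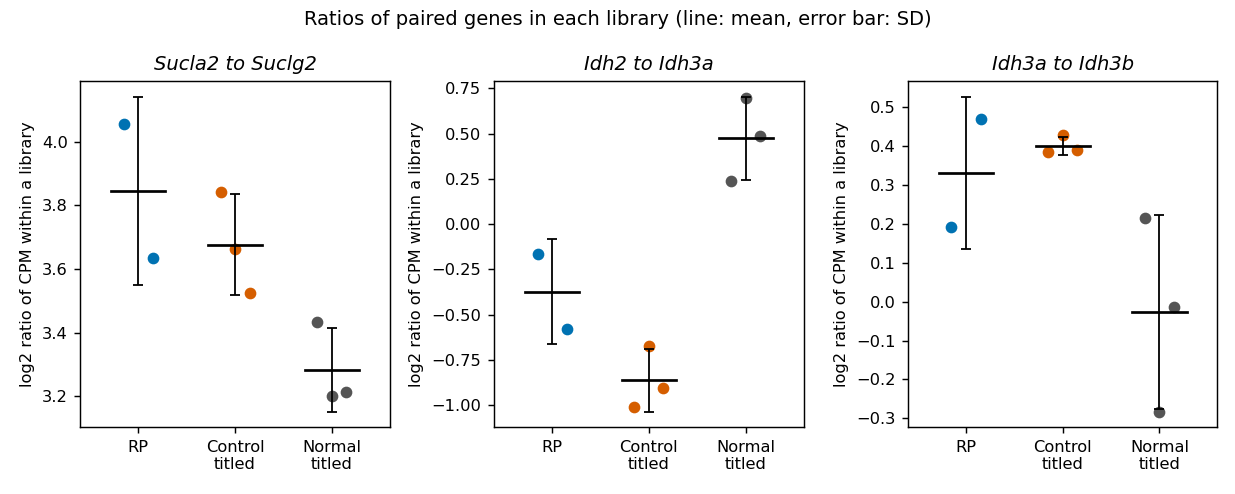
Log2 ratio of 2 genes' CPM within each library (y axis), for RP, Control-titled and Normal-titled libraries. Points are libraries, lines are means and error bars are SD. For Idh2 to Idh3a the Control-titled libraries lie lowest (-1.01 to -0.67) and the Normal-titled highest (0.24 to 0.70).

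Of 14 other genes of the cycle, its complex II and its cytosolic forms, 0 were called in RP over Control and 0 in RP over Normal, and 1 was higher and 0 lower in Control over Normal. Over all genes tested 0.175, 2.50 and 10.4% were called in these comparisons, the background for this list and those below. The median log2 changes of the 14 genes were 0.068, 0.27 and 0.26. The gene called was Sdhd, a membrane anchor of succinate dehydrogenase, at 177, 136 and 193 CPM in Control-titled libraries and 109.9, 72.2 and 75.6 CPM in Normal-titled libraries (log2 change 0.97, adjusted p = 0.0379 in edgeR). In RP it was at 47.0 and 114 CPM, 1 library below and 1 above all Normal-titled ones. Mdh1, the cytosolic malate dehydrogenase, was at 873 and 833 CPM in RP and 459 to 635 CPM in Normal-titled libraries (log2 change 0.68, adjusted p = 0.0631 in edgeR).

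**Figure D4:**
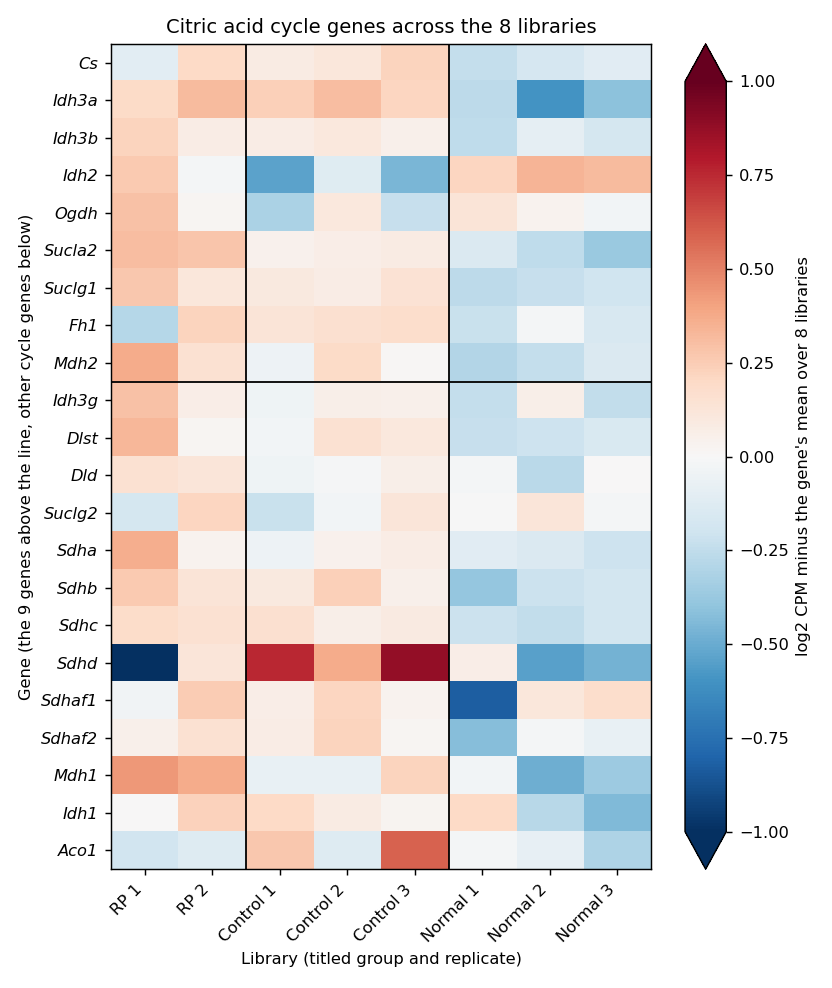
Log2 CPM minus each gene's mean over the 8 libraries (colour, from -1 to 1, with values beyond shown at the end colour) for the 9 genes above the line and other cycle genes below it. Most of the 9 genes are below their mean in all Normal-titled libraries, while Idh2 is above it there (0.21 to 0.34) and below it in all Control-titled libraries (-0.54 to -0.12).

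Of 15 tested genes for the entry of pyruvate, 0 were called in RP over Control, 1 was higher in RP over Normal, and 3 were higher in Control over Normal. None was lower in these comparisons. The gene higher in both was Pdp1, a phosphatase that switches pyruvate dehydrogenase on, at 201 and 206.5 CPM in RP, 169.6 to 212 CPM in Control-titled and 82.5 to 123 CPM in Normal-titled libraries. It was 0.96 higher on the log2 scale in RP over Normal (adjusted p = 0.0145) and 0.89 in Control over Normal (adjusted p = 0.00484, edgeR). The others were Mpc1 and Mpc2, which form the mitochondrial pyruvate carrier, at 0.52 and 0.50 in Control over Normal (adjusted p = 0.0280 and 0.0315 in edgeR). Pdk4, a kinase that switches the complex off, was at 36.2 and 121 CPM in RP, 90.9 to 114 CPM in Control-titled and 111 to 343 CPM in Normal-titled libraries, and it passed in no comparison.

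Of 24 genes that drain or refill the cycle, 0 were called in RP over Control, 1 was higher in RP over Normal and 3 were higher in Control over Normal, with 0 lower. Oxct1, which activates ketone bodies with a CoA taken from succinyl-CoA, was at 599 and 469 CPM in RP, 445 to 509 CPM in Control-titled and 274 to 312 CPM in Normal-titled libraries. It was higher by 0.89 on the log2 scale in RP over Normal (adjusted p = 0.0113) and 0.76 in Control over Normal (adjusted p = 0.00568, edgeR). The citrate carrier Slc25a1 and the dicarboxylate carrier Slc25a10 had log2 changes of 1.27 and 1.29 in Control over Normal (adjusted p = 0.0141 and 0.0403 in edgeR). Slc25a1 was at 5.71 and 7.20 CPM in RP, 12.9 to 24.8 CPM in Control-titled and 4.68 to 9.42 CPM in Normal-titled libraries, so RP overlapped Normal.

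Of 20 regulators of mitochondrial genes, 1 was higher in RP over Control, 1 in RP over Normal, and 1 was higher and 3 lower in Control over Normal. Ppargc1a, the coactivator PGC-1alpha, was at 328 and 229 CPM in RP, 38.5 to 50.4 CPM in Control-titled and 98.7 to 209 CPM in Normal-titled libraries. Its log2 change was 2.69 in RP over Control (adjusted p = 7.74e-04) and -1.92 in Control over Normal (adjusted p = 4.52e-04, edgeR). Sirt3, a mitochondrial deacetylase, was at 15.1 and 14.3 CPM in RP, 11.6 to 13.0 CPM in Control-titled and 6.60 to 8.33 CPM in Normal-titled libraries. It was higher in RP over Normal (log2 change 0.99, adjusted p = 0.0239) and in Control over Normal (0.75, adjusted p = 0.0230, edgeR). Nrf1 and Hif1a, a respiratory gene regulator and a hypoxia factor, were lower in Control over Normal (-0.69 and -0.76, adjusted p = 0.0179 and 0.0207 in edgeR).

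Levels of some cell type markers moved with the groups. All 10 skeletal muscle fibre markers were detected, with a summed level of 101800 and 97760 CPM in RP, 81160 to 94930 CPM in Control-titled and 62550 to 82860 CPM in Normal-titled libraries. Single fibre markers went both ways in Control over Normal, with 3 called higher and 1, Des, lower by edgeR. There 5 of 10 had a positive log2 change, with a median of 0.013. In RP over Control 0 were called, and in RP over Normal 2 were higher and 0 lower. The sum of 12 erythroid markers was 9057 and 40050 CPM in RP, 12930 to 16350 CPM in Control-titled and 43600 to 237300 CPM in Normal-titled libraries. For 11 neutrophil markers it was 41.4 and 510.3 CPM in RP, 16.4 to 28.8 CPM in Control-titled and 972 to 1995 CPM in Normal-titled libraries, with Ltf at 0 in every Control-titled library. By edgeR 11 of 12 erythroid and 9 of 10 tested neutrophil markers were lower in Control over Normal, 3 and 2 were lower in RP over Normal, and 0 and 2 were higher in RP over Control. The erythroid rows Hbb-bs and Hbb-b1 were near equal in each library, at 58240 and 57260 CPM in Normal 3. So were Hbb-bt and Hbb-b2, at 18770 and 17800 CPM there. Whether the same reads were counted in both rows, here and in the haemoglobin shares, was not tested. Beyond the haemoglobin values given here, the part of these markers in the results was not tested. With haemoglobin counts taken out, the 9 genes held 0.381 and 0.374% of counts in RP, 0.361 to 0.385% in Control-titled and 0.313 to 0.334% in Normal-titled libraries.

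The genes whose pattern was most like the mean log2 CPM of the 9, each centred, were ranked among 5509 genes with a mean of at least 20 CPM. The first 6 by Pearson correlation over the 8 libraries were Ndufs8, Tmem143, Wfdc1, Pkm, Atp5a1 and Atp5k, from 0.961 to 0.975, given as a description of libraries that also differ in group and scaling. Ndufs8, a subunit of respiratory complex I, was at 213 and 198 CPM in RP, 169.7 to 192 CPM in Control-titled and 131 to 145 CPM in Normal-titled libraries. Pkm, pyruvate kinase, was at 1501 and 1290 CPM in RP, 1090 to 1252 CPM in Control-titled and 691 to 756 CPM in Normal-titled libraries. Atp5a1 and Atp5k encode parts of ATP synthase.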

How the data were processed

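Per the labels' protocols, Lexogen's QuantSeq 3' kit was used on 500 ng of RNA. The deposited tables hold raw read counts per gene symbol, 1 library each, not normalized by the authors. Bowtie2, edgeR and build mm10 are named, per the submitters' processing notes, and the counting tool, strand and annotation are not given in the sources used here. The 35 symbols listed more than once were kept as separate rows.

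Libraries were grouped by title. The main test was the quasi-likelihood test of edgeR 4.0.16 (R 4.3.3) with filterByExpr, TMM factors and 1 fit of all 8 libraries, whose common biological coefficient of variation was 0.195. It was 2-sided, and p-values were adjusted by Benjamini-Hochberg over 13174 genes. Intervals are 95%. Ratios used log2 CPM with a prior count of 2 and exact permutation tests. Alternatives used DESeq2 1.42.0 and limma 3.58.1. Of each member, the last 400 bases of its protein-coding transcripts shared no run of 50 bases with another GENCODE M21 gene. The pipeline was tested on simulated counts with changes set in genes of all levels. Of 1.5-fold changes it called 7.46, 17.9 and 20.9% in RP over Control, RP over Normal and Control over Normal. Of 2-fold changes it called 44.8, 58.2 and 55.2%. The false share of the calls was 3.16, 6.67 and 6.72%. Changes of such size can thus go uncalled among genes of all levels. The number of changed genes was set and was not that of the data. The share called among genes at the members' levels was not computed, so these values do not give it. Figures were drawn with matplotlib 3.10.9.

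The members and gene lists were chosen with earlier results of these data known. All 9 members were named. From the other lists, genes that passed the test and at most 4 others were named, along with 6 genes of like pattern. The level of 1 listed gene is not reported here.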

Additional observations from a re-analysis of the deposited data

How the results depend on the processing

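Results were recomputed under 20 alternatives. In RP over Control, 0 of 9 genes were called under every one. In RP over Normal the count of 1 became 0 with library totals alone, with only the 2 groups compared, with a replicate block and with the Hba-a1 covariate, 3 with DESeq2, 2 at a threshold of 0.1, and 0 to 2 with 1 library left out. In Control over Normal the count of 2 became 3 with library totals alone, 0 with the Hba-a1 covariate and 1 to 2 with 1 library left out. The cause was not tested. Of 540 values of single genes, 15 changed sign, none of them called. In RP over Control these were Idh3a (-0.027 with upper-quartile scaling, -0.13 with library totals, -0.019 at a mean CPM of at least 5, -0.0041 with the replicate block, -0.0062, -0.017 and -0.058 without Control 1, Control 3 and RP 2), Idh3b and Suclg1 (-0.054 and -0.043 with library totals), and Cs, Idh3b and Fh1 (0.061, -0.0031 and 0.067 without RP 1). In RP over Normal they were Ogdh (-0.050 with the covariate, -0.025 without RP 1) and Fh1 (-0.15 without RP 2). Leaving out 1 library gave ranges of -0.24 to 0.061 (Cs), -0.058 to 0.065 (Idh3a), -0.0031 to 0.15 (Idh3b) and -0.44 to 0.067 (Fh1) in RP over Control, and of -0.31 to -0.024 (Idh2), -0.025 to 0.25 (Ogdh) and -0.15 to 0.35 (Fh1) in RP over Normal. Library totals alone moved the median of all genes by -0.13 in RP over Control and 0.14 in Control over Normal. Without RP 1 the ratio differences of RP over Control changed sign for Sucla2 to Suclg2 (-0.041) and Idh3a to Idh3b (0.069), within a range of -0.041 to 0.38 and -0.21 to 0.069. Counts over all genes varied more. The 23 calls of RP over Control became 6 with library totals, 204 without a filter, 11 at a mean CPM of at least 5, 112 with DESeq2, 10 with limma-voom, 121 with only the 2 groups, 51 at a threshold of 0.1 and 8 to 72 with 1 library left out. The 330 of RP over Normal became 718 without a filter, 676 with DESeq2, 100 with only the 2 groups, 104 with the covariate, 710 at 0.1 and 57 to 670 with 1 library left out. The 1376 of Control over Normal became 382 with the covariate, 2201 at 0.1 and 608 to 1858 with 1 library left out. Where 1 RP library was left, its spread was taken from the other groups. Replicate numbers are those of the titles and were not taken as pairs in the main test. Deviations of same-numbered Control and Normal libraries correlated at -0.067, -0.019 and -0.042, and 0 of these 6 libraries correlated best with their own number. Same-numbered RP and Control libraries correlated at -0.068 and -0.058, and RP and Normal libraries at 0.052 and 0.080. For RP, libraries of unlike number were not compared. With the replicate block the counts were 17, 262 and 1218, and Idh3a in RP over Normal had adjusted p = 0.105.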

Other observations

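Of 20 genes for mitochondrial import, chaperones, membranes and cytochrome c, 0 were called in RP over Control, 1 was higher in RP over Normal and 1 higher in Control over Normal. The gene was Cycs, cytochrome c, at 765 and 705 CPM in RP, 623 to 684 CPM in Control-titled and 369 to 505 CPM in Normal-titled libraries. Its log2 change was 0.81 in RP over Normal (adjusted p = 0.0236) and 0.64 in Control over Normal (adjusted p = 0.0187, edgeR). The medians of the list were 0.091, 0.14 and 0.065 in RP over Control, RP over Normal and Control over Normal.

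Of 8 slow-fibre markers, 0 were called in any of the 3 comparisons by edgeR. Their medians were -0.097, -0.23 and -0.084 in RP over Control, RP over Normal and Control over Normal, with 1, 1 and 2 of 8 positive. Of 11 fast-fibre markers, 0 were called in RP over Control, 2 were higher in RP over Normal and 3 higher in Control over Normal. The medians of the fast-fibre list were 0.18, 0.24 and 0.072 in RP over Control, RP over Normal and Control over Normal, with 10, 10 and 6 of 11 genes positive. Those called were Pvalb, a calcium buffer, and the myosin light chain Myl1 in both comparisons with Normal, at 1.19 and 1.16 in RP over Normal and 1.12 and 1.35 in Control over Normal, and the light chain Mylpf at 0.63 in Control over Normal. Among the others, Myh4, a fast myosin heavy chain, and Actn3, a fast-fibre actinin, were at -0.22 and -0.34 in Control over Normal (adjusted p = 0.539 and 0.371 in edgeR).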
